A study of Mus musculus with 9 samples.

Results

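The comparison described here set mouse macrophages treated with WGFT17 against Control macrophages, with 3 RNA-seq libraries on each side. It covered the 11798 genes, of the 28998 in the deposited table, whose mean level over all 9 libraries of the study was at least 1 FPKM, a level per transcript length and library size (fragments per kilobase, scaled to the mapped fragments). The question was which gene families and functions differed between the drug-treated and the Control cells. WGFT17 is a code name, and neither its structure nor its target is given in the sources used here.

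All cells were wild-type (WT) bone marrow-derived macrophages from c57 mice, grown from marrow monocytes for 7 days with GM-CSF, the granulocyte-macrophage colony-stimulating factor. Drug exposure lasted 36 h. A further group of 3 libraries received JHU083, known as a prodrug of the glutamine antagonist DON, and entered the fit only to share the estimate of spread and for the differences given beside single families. The labels give no dose, no vehicle or time for the Control cells, and no age or sex of the mice. They do not say whether the 3 libraries of a group came from separate mice or cultures, so every p-value measures the spread between libraries, which may be technical.

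As background, macrophages read their surroundings through cytokine, pattern recognition and scavenger receptors, and clear particles through the lysosome. Shortage of amino acids or misfolded protein slows translation through eIF2-alpha and raises the transcription factor ATF4, which, with C/EBP partners and CHOP, induces amino acid transporters, synthetases and the inhibitors that limit the response. Oxidants and electrophiles release NRF2, which induces the glutathione, thioredoxin, heme and iron genes. TFEB and its relatives induce lysosomal genes, and SREBP2 induces cholesterol synthesis when sterol in the endoplasmic reticulum is low.

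The libraries held 60438656 to 65950611 counts in Control and 66436251 to 69112134 in WGFT17, where about 4 counts stood for 1 read pair. Macrophage markers were high in both groups, with a summed level of 14 markers of 11833 to 12821 FPKM in Control and 12270 to 13633 in WGFT17. Of these markers 4 rose and 6 fell, with Cx3cr1 (log2 -2.25) and C1qa (-0.93) among the falls, and Adgre1, which encodes F4/80, Cd68, Cd14 and Lyz2 did not pass the test. Markers of other cells differed with the groups. The 13 fibroblast and stromal markers summed to 1415 to 1517 FPKM in Control, 935 to 1106 in JHU083 and 247 to 258 in WGFT17. The 20 heart muscle markers summed to 108 to 117 FPKM in Control and 1 to 1.1 in WGFT17, with 12 of the 20, Myh6 among them, listed at 0 in every WGFT17 library. In JHU083 they summed to 96.3, 2.35 and 128 FPKM in replicates 1 to 3, so that split did not follow drug treatment in that group. The 25 liver markers summed to 676 to 763 FPKM in Control and to 379, 377 and 187 in WGFT17 replicates 1 to 3. The 14 photoreceptor markers summed to 10 to 11.5 and 1.78 to 2.26 FPKM, and the 15 neutrophil markers to 76.4 to 84.1 and 31.1 to 35.8. Dendritic cell markers, 13 in number, summed to 55.8 to 75.5 and 16.2 to 19.8 FPKM, 17 markers of T, NK and B cells to 46.5 to 52.6 and 22.2 to 24.3, and the 10 endothelial markers to 30.8 to 32.2 and 32.1 to 34.2. The endothelial sum hides opposite changes, since of 5 members tested 3 were at least 2-fold lower and 1 at least 2-fold higher. Osteoclast markers, 10 in number, summed to 195 to 245 FPKM in Control and 153 to 159 in WGFT17. For 13 erythroid and megakaryocyte markers the sums were 279 to 311 and 209 to 239. The 7 mast cell and basophil markers summed to 9.41 to 11.8 FPKM in Control, 4.34 to 5.44 in JHU083 and 0.86 to 0.98 in WGFT17, with the defining markers Fcer1a and Ms4a2 at or near 0 in all groups. Between Control and WGFT17 the presence of these transcripts and the treatment cannot be told apart. In bulk RNA, fewer cells of a type and less RNA per cell also cannot be told apart.

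**Figure D1:**
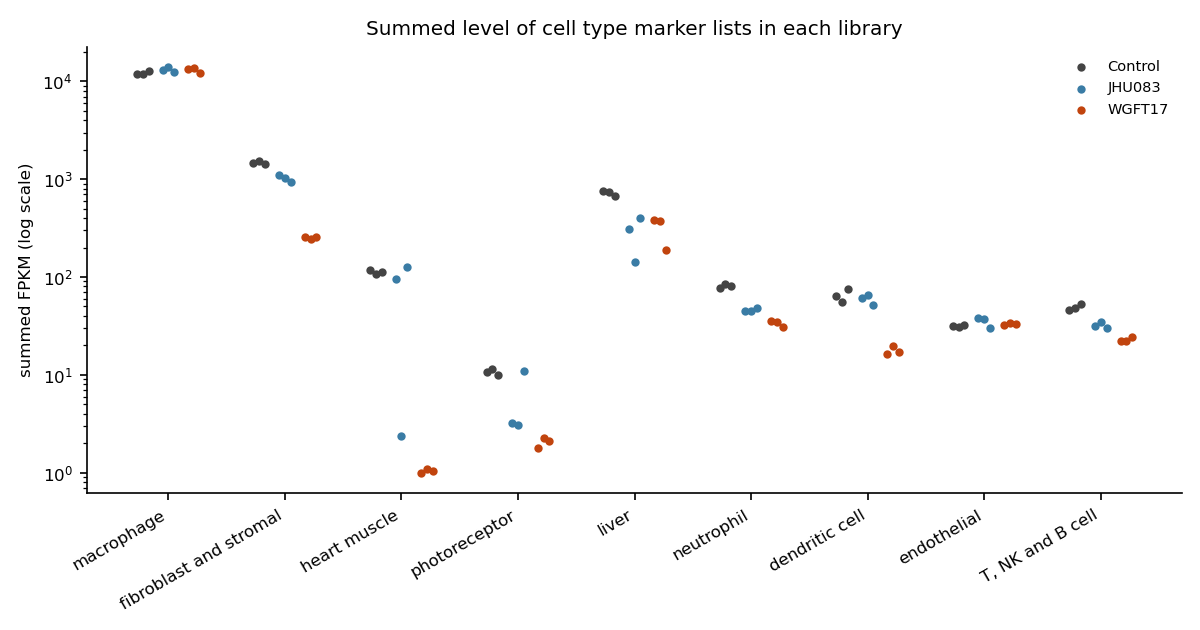
Summed FPKM (log axis) of 9 cell type marker lists in each of the 9 libraries, by group. Macrophage sums are 11833 to 13936 FPKM over all groups, while the stromal sum is 1415 to 1517 FPKM in Control and 247 to 258 in WGFT17.

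Most measured genes differed by a small amount between WGFT17 and Control and fewer by a large one, and the large differences were mostly decreases. Of the 11798 genes, 6837 (58%) passed an adjusted p of 0.05, 3300 (28%) as higher and 3537 (30%) as lower in WGFT17. The median size of these changes was 0.51 on the log2 scale. At least 2-fold changes among them numbered 1521 (12.9%), of which 252 (2.14%) were higher and 1269 (10.8%) lower. At least 8-fold changes were found in 16 genes that rose and 169 that fell. For 8636 genes (73.2%) the deposited FPKM of the 2 groups did not overlap. FPKM is scaled otherwise than the fit, so that count includes genes that were not called, such as Vps53 (log2 -0.02). Against JHU083, 5277 genes (44.7%) passed the test in WGFT17, and JHU083 differed from Control in 2831 (24%). These comparisons share libraries, so the families below are given with the values of each comparison and no agreement is read between them. Each family's count is set against the 28% and 30% above, and its median log2 change against that of all genes tested, 0.00441. With limma on log2(FPKM + 1) the call split was 4490 higher and 2879 lower, 60.9% higher against 48.3%. The median over all genes was then 0.0951, and 0.112 with log2(FPKM + 0.1), so changes of that size are relative to the scaling.

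**Figure D2:**
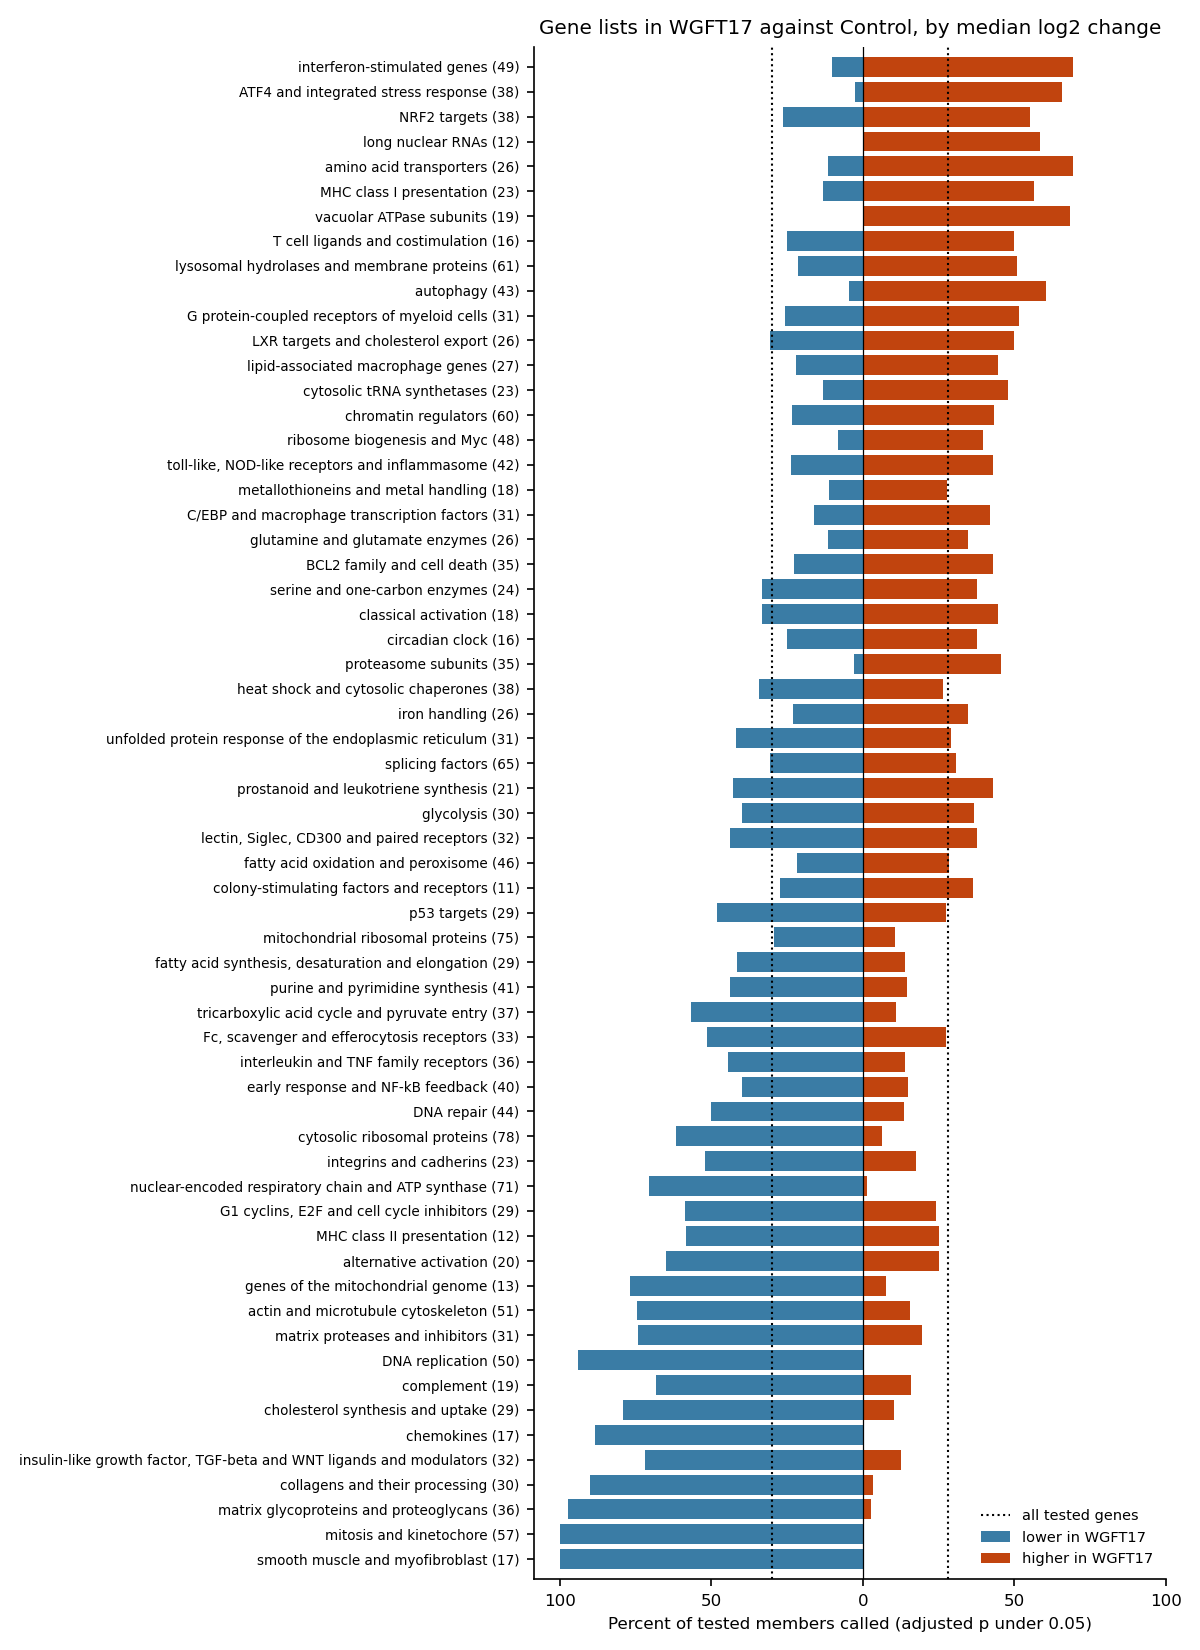
Percentage of tested members called higher and lower in WGFT17 for 61 gene lists with at least 10 tested members. The macrophage, heart muscle and liver marker lists also have that many and are not drawn. Dotted lines mark the 28% higher and 30% lower among all tested genes, and mitosis, collagen, matrix and smooth muscle lists lie far to the lower side while the ATF4, interferon and amino acid transporter lists lie to the higher side.

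**Figure D3:**
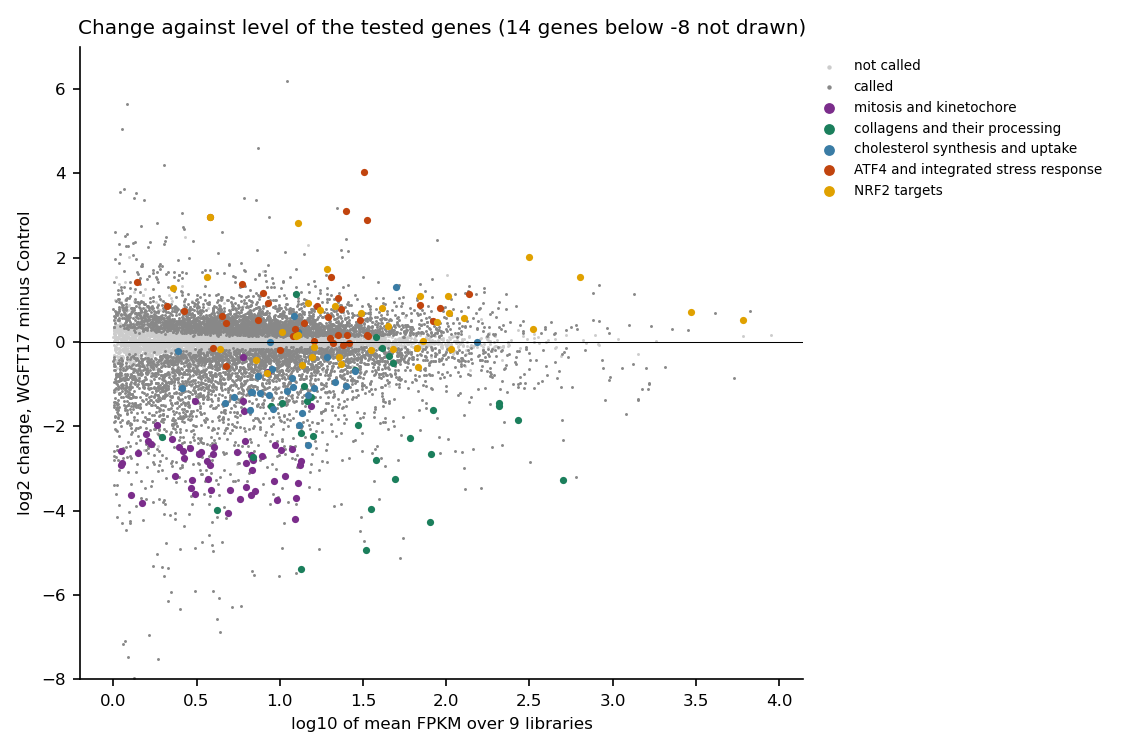
Log2 change in WGFT17 against Control by the mean level of each gene (log10 FPKM over the 9 libraries), with members of 5 lists coloured. The large changes are mostly decreases, and the 14 genes below -8 are not drawn.

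Genes of the integrated stress response rose together, led by transcription factors and their feedback genes. Of 38 tested members of the ATF4 list, 25 rose, 1 fell and the other 12 missed the threshold. The median log2 change was 0.56, and 10 changed at least 2-fold. In JHU083 the median of the same list against Control was -0.25. Cebpb (chr2:167688915-167690418), the transcription factor C/EBP-beta that pairs with ATF4 and drives myeloid genes, stood at 3.69, 3.63 and 4.04 FPKM in Control and 65.9, 67.2 and 66.3 in WGFT17. Every WGFT17 library lay above every Control library, a fitted rise of 16.2-fold (log2 4.02 ± 0.79 SE, adjusted p = 0.00116). In JHU083 it stood at 38.8, 36.2 and 1.47 FPKM, so that group was split, and the WGFT17 to JHU083 difference of 1.37 on the log2 scale did not pass (adjusted p = 0.132). Fitted without JHU083 replicate 3, a choice made after the data were seen, the rise over Control had an adjusted p of 6.25e-12. Cebpb shares 908 bases with Tmem189 on the opposite strand, which averaged 47.1 FPKM and changed by 0.28 on the log2 scale. Whether the counting used strand is not given, so the Cebpb values are uncertain. Ddit3 (chr10:127290774-127296288), which encodes CHOP, stood at 9.7, 10.9 and 9.03 FPKM in Control and 78.6, 76.8 and 81.1 in WGFT17. Trib3, a pseudokinase induced by CHOP that restrains the response, went from 6.55, 7.86 and 5.78 FPKM to 60.7, 61.8 and 63.8. The groups did not overlap for either gene, and the rises were 7.39-fold (adjusted p = 1.42e-10) and 8.55-fold (adjusted p = 2.44e-09). Both also exceeded JHU083, by 2.71 and 3.38 on the log2 scale. Atf4 itself rose less, from 72.8, 75.6 and 68.5 FPKM to 138, 135 and 138 (1.76-fold, adjusted p = 5.66e-08). Ppp1r15a, the GADD34 subunit that reverses the translation block, rose by 1.54 on the log2 scale, and Chac1, which degrades glutathione, by 1.16. Atf3, Atf5 and Cebpg, 3 further transcription factors of the pathway, rose by 0.88, 0.50 and 0.92. Asns, the asparagine synthetase, rose by 0.52, Sesn2 by 0.60 and the secreted stress cytokine Gdf15 by 1.05. The member that fell, named after its value was seen, was the branched-chain aminotransferase Bcat1, by 0.57 on the log2 scale.

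Promoters of this list held the C/EBP-ATF element more often than promoters at large, and 4 windows are shown because they belong to called members with the largest changes. The motif searched was TGATGNAA on either strand in the 250 bases before the annotated start, and it was found in 7 of 34 list promoters (20.6%) and in 1.98% of the 8699 promoters of tested genes. Of the 7 genes, 5 rose and the others missed the threshold. Capitals mark the match nearest the annotated start. The Slc7a11 promoter holds 2 matches, and the other lies in its window in lower case. The windows, from RefSeq on GRCm38.p6 and written on the gene strand, lie at chr3:50443623-50443690 (minus strand) for Slc7a11, chr2:119351019-119351086 (plus) for Chac1, chr1:191183406-191183473 (minus) for Atf3 and chr6:7693210-7693262 (minus) for Asns. A match is a description of letters and not a measured binding site.
Slc7a11: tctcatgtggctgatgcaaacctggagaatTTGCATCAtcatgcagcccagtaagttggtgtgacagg
Chac1: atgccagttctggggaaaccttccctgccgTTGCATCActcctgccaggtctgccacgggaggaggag
Atf3: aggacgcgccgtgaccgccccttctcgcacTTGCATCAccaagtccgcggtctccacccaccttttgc
Asns: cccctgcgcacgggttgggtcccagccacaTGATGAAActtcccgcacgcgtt

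Amino acid transporters were raised as a family. Of 26 tested, 18 were higher and 3 lower, with a median of 0.35. Slc7a11, the cystine importer of system xc-, stood at 1.2, 1.08 and 1.02 FPKM in Control and 9.26, 9.84 and 9 in WGFT17, a rise of 7.87-fold with no overlap (adjusted p = 2.6e-09). Slc3a2, the heavy chain that partners it, went from 89.9, 91.3 and 92.5 FPKM to 208, 224 and 215. All WGFT17 libraries were above all Control libraries for both subunits of the importer. Slc7a8, a carrier of large neutral amino acids, rose by 1.04 on the log2 scale, the creatine carrier Slc6a8 by 0.85 and the cationic carrier Slc7a1 by 0.53. The glycine carrier Slc6a9 rose by 1.38, although it overlaps B4galt2 on the opposite strand, which fell by 1.54. The 3 that fell, named after their values were seen, were Slc7a6 by 0.54, Slc38a10 by 0.46 and Slc7a7 by 0.24, the last of which did not pass without replicate 3 of either group (edgeR adjusted p = 0.083 each). Slc7a7 also did not pass with no minimum FPKM (edgeR adjusted p = 0.0573) or on log2(FPKM + 1) (limma adjusted p = 0.167). Among 23 cytosolic tRNA synthetases, which charge tRNAs with amino acids, 11 were higher and 3 lower (median 0.14, and 0.24 with limma on log2(FPKM + 0.1)), with Aars, Lars and Sars up by 0.70, 0.65 and 0.60. Gars, at 50.8 ± 0.429 FPKM (SD, n = 3) in Control and 56.1 ± 1.84 in WGFT17, did not pass (log2 0.03). Enzymes of serine and one-carbon metabolism were split, 9 higher and 8 lower of 24, and the mitochondrial folate enzyme Mthfd2 rose by 0.85. At least 2-fold changes were 1 higher and 4 lower, and log2 changes ran from -1.9 to 1.3. The folate enzyme Aldh1l2 rose by 1.3 and Aldh1l1 fell by 1.29. Of 26 enzymes of glutamine and glutamate metabolism 9 were higher and 3 lower, with a median of 0.07.

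The endoplasmic reticulum arm of the stress response did not follow the ATF4 genes. Of 31 genes of the unfolded protein response 9 were higher and 13 lower, with a median of -0.02. At least 2-fold changes were 3 higher and 2 lower, and log2 changes ran from -1.08 to 1.59. Hspa5, the chaperone BiP, rose by 0.18 on the log2 scale. The protein disulfide isomerases Pdia6, Pdia4 and Pdia3 fell by 1.02, 0.96 and 0.76. Calr, the lectin chaperone calreticulin, stood at 411, 422 and 428 FPKM in Control and 225, 212 and 206 in WGFT17, and the groups did not overlap (fell by 1.08, adjusted p = 2.09e-08). Heat shock and cytosolic chaperones were also split, 10 higher and 13 lower of 38. Hspa9, the mitochondrial chaperone mortalin, rose from 77.9, 78.7 and 74.7 FPKM to 184, 179 and 182, with every WGFT17 library above Control (2.19-fold), while the inducible cytosolic Hspa1a fell by 1.35.

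Targets of NRF2 rose in larger number than they fell. Of 38 tested, 21 were higher and 10 lower, with a median of 0.43 (-0.10 for JHU083 against Control). Nqo1, a quinone reductase, stood at 3.58, 3.47 and 4.45 FPKM in Control and 26.2, 31.3 and 29.9 in WGFT17. Hmox1, the heme oxygenase, stood at 359, 369 and 374 FPKM and at 1080, 1179 and 1183. Neither gene's groups overlapped, and the rises were 7.03-fold and 2.9-fold. Gclm and Gclc, the subunits of the enzyme that starts glutathione synthesis, rose by 1.74 and 0.92 on the log2 scale. Srxn1 and Txnrd1, which reduce peroxiredoxins and thioredoxin, rose by 1.08 and 0.81. The pentose phosphate enzymes Pgd and Taldo1 rose by 0.49 and 0.57. Fth1, the ferritin heavy chain that stores iron, went from 2386, 2428 and 2439 FPKM to 4195, 4361 and 4176, a rise of 1.63-fold with no overlap, and the light chain Ftl1 rose by 0.51. Iron genes as a whole were 9 higher and 6 lower of 26, and the transferrin receptor Tfrc rose by 0.39. Of 18 metallothioneins and metal handling genes 5 were higher and 2 lower, and Mt1 did not pass (log2 -0.15). Members of the NRF2 list that fell included the epoxide hydrolase Ephx1 by 0.60, the malic enzyme Me1 by 0.55 and the aldo-keto reductase Akr1b8 by 0.51. The NRF2 element TGACNNNGC lay in 10 of 32 list promoters (31.2%) and in 12.2% of all promoters, and the 10 genes were 4 higher, 4 lower and 2 not passed. The window of Gclm at chr3:122245393-122245461 (plus strand, GRCm38.p6, RefSeq) is shown as the member with a match and the largest rise, and capitals mark the element on the opposite strand.
Gclm: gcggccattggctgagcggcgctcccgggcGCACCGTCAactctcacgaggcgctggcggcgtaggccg

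Lysosome and autophagy genes were raised broadly and by modest amounts. Of 61 lysosomal hydrolases and membrane proteins 31 were higher and 13 lower (median 0.24), of 43 autophagy genes 26 were higher and 2 lower (median 0.23), and of 19 subunits of the vacuolar ATPase, the proton pump that acidifies the lysosome, 13 were higher and 6 did not pass (median 0.28). Sqstm1, the autophagy receptor p62, stood at 141, 148 and 151 FPKM in Control and 620, 637 and 674 in WGFT17. It rose 4.07-fold with no overlap (adjusted p = 4.58e-09), and exceeded JHU083 by 2.02 on the log2 scale. Npc1, which exports cholesterol from the lysosome, went from 31.5, 32 and 31.5 FPKM to 80.8, 85.2 and 86.1. Gpnmb, a lysosomal glycoprotein, went from 905, 815 and 928 FPKM to 2061, 2172 and 2075. Both groups were apart for each gene, and the rises were 2.46-fold and 2.21-fold. Ctsd, the main aspartic protease of the organelle, averaged 5123 ± 152 FPKM (SD, n = 3) in Control and 9240 ± 148 in WGFT17, and the activator protein precursor Psap 3323 ± 59.2 and 5797 ± 92.3. Their changes were 0.74 and 0.69 on the log2 scale. Cathepsin L (Ctsl), the acid lipase Lipa, the galactosidase Gla and the calcium channel Mcoln1 rose by 0.95, 0.67, 0.78 and 0.69. Rragd, a GTPase that recruits mTORC1 to the lysosome and a known TFEB target, rose by 1.08. Tfeb itself averaged 5.34 ± 0.216 FPKM and 5.07 ± 0.136 and did not pass (log2 -0.18). Members that went the other way included Acp5, the tartrate-resistant phosphatase of osteoclasts and macrophages, at 44.5, 40.2 and 52.1 FPKM in Control and 9.81, 12.3 and 10.9 in WGFT17, the sulfatase Arsb, which fell by 0.80, and the sphingomyelinase Smpd1, by 0.68. The 2 autophagy genes that fell, named after their values were seen, were Wipi1 by 0.89 and the mitophagy receptor Bnip3 by 0.60. Of 35 proteasome subunits 16 were higher and 1 lower, with a median of 0.01. The subunit that fell, named after its value was seen, was Psmb7 (log2 -0.18), a call lost without Control replicate 2 or WGFT17 replicate 1 or 3 (edgeR adjusted p = 0.0801, 0.0667 and 0.0671). Psmb7 also did not pass with no minimum FPKM (edgeR adjusted p = 0.0595) or on log2(FPKM + 1) (log2 -0.06, limma adjusted p = 0.335).

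The core of the CLEAR element, which TFEB is known to bind, is CACGTGAC, and it was found on either strand in 9 of 51 lysosomal promoters (17.6%) and in 3.6% of all promoters. Among those 9 genes 5 rose and 1 fell. Windows of 3 that rose are shown, with the match nearest the start in capitals, from RefSeq on GRCm38.p6 at chr7:142387888-142387955 (minus strand) for Ctsd, chrX:134601164-134601231 (minus) for Gla and chr8:3500444-3500511 (plus) for Mcoln1. The Mcoln1 promoter holds 2 matches, and the other lies in its window in lower case.
Ctsd: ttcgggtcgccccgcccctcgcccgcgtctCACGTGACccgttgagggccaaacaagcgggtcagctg
Gla: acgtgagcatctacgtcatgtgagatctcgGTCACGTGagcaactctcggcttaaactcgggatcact
Mcoln1: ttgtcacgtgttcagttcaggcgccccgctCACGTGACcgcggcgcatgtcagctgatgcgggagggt

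Genes of sterol synthesis fell. Of 29 genes of cholesterol synthesis and uptake 23 were lower and 3 higher, 17 of them at least 2-fold lower, with a median of -1.09 (-0.19 for JHU083 against Control). Fdps, which makes farnesyl diphosphate, stood at 20.2, 22 and 18.9 FPKM in Control and 5.88, 5.64 and 5.29 in WGFT17. The groups were far apart, with a log2 change of -1.97 (edgeR adjusted p = 2.57e-09). Cyp51 and Fdft1, later enzymes of the pathway, fell by 1.68 and 1.59. Srebf2, which encodes SREBP2, fell by 0.69 and its retention factor Insig1 by 1.04. The 3 that rose, named after their values were seen, were Npc1, the ubiquitin ligase Mylip (log2 0.61) and the SREBP escort Scap (0.25). Fatty acid desaturases moved the same way as sterol enzymes. Fads2, the delta-6 desaturase, stood at 15.4, 16.3 and 13.7 FPKM in Control and 1.3, 1.04 and 1.05 in WGFT17, 14.4-fold lower (adjusted p = 8.24e-10). The stearoyl-CoA desaturases Scd2 and Scd1 fell by 2.54 and 1.52, Fads1 by 0.91 and the synthase Fasn by 0.88. Over the 29 genes of fatty acid synthesis, desaturation and elongation 12 were lower and 4 higher.

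Genes of lipid storage and export did not share a direction. Of 26 LXR targets and export genes 13 were higher and 8 lower. Plin2, which coats lipid droplets, went from 102, 98.6 and 127 FPKM to 258, 272 and 273, with no overlap (log2 1.19 ± 0.11 SE). Soat1 and Nceh1, which esterify cholesterol and release it from esters, rose by 0.74 and 0.69, and the lipase Lpl by 0.78. Ch25h, which makes 25-hydroxycholesterol, rose by 1.42, and Cd5l, a secreted protein of tissue macrophages, by 1.15. The exporter Abca1, at 28.2 ± 0.602 FPKM and 27.4 ± 2.34 (SD, n = 3), did not pass, and Apoe, at 5112 ± 301 and 6089 ± 404, did not either. Fatty acid oxidation and peroxisome genes were 13 higher and 10 lower of 46, and genes of lipid-associated macrophages 12 higher and 6 lower of 27. The sterol element TCACNCCAC was found in 1 of 21 promoters of the cholesterol synthesis and uptake list (4.76%), that of Hmgcs1, and in 0.943% of all promoters.

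Cell division genes fell as a family. All 57 tested genes of mitosis and the kinetochore were lower in WGFT17, 55 of them at least 2-fold, with a median of -2.8 and a range of -4.2 to -0.35 (median -1.76 with limma on log2(FPKM + 1)). The same list had a median of 0.15 in JHU083 against Control, and 56 of the 57 were called between WGFT17 and JHU083. Ccnb2, a cyclin of mitotic entry, stood at 17.1, 20.4 and 18.6 FPKM in Control and 0.74, 1.24 and 1.31 in WGFT17. Plk1, the polo kinase of mitosis, went from 19.8, 18.1 and 18.9 FPKM to 1.47, 1.63 and 1.6. Mki67, the proliferation marker Ki-67, went from 17, 15.1 and 11.7 FPKM to 2.32, 1.79 and 2.15. None of the 3 overlapped, and they were 18.3-fold, 13-fold and 7.54-fold lower. In JHU083, Mki67 stood at 22.1, 20.7 and 25.7 FPKM. The stromal marker sum was 1415 to 1517 FPKM in Control, 935 to 1106 in JHU083 and 247 to 258 in WGFT17. The part of stromal cells in the cell division values was not tested. Of 50 DNA replication genes 47 were lower and 3 did not pass (median -0.83). The helicase subunits Mcm5, Mcm3 and Mcm2 fell by 1.23, 0.84 and 0.53. The 3 that did not pass, named after their values were seen, were Cdt1 (log2 0.18), Rfc1 (-0.01) and Pold3 (0.11). Among 29 cyclins of G1, E2F factors and inhibitors 17 were lower and 7 higher. Cyclin D1 (Ccnd1), which links growth factors to the cycle, fell by 0.48, cyclins E1 (Ccne1) and E2 (Ccne2) by 1.47 and 1.36, and the late repressor E2f8 by 2.62. The INK4 inhibitors fell as well, with Cdkn2c down by 1.98 and Cdkn2a by 1.44. Cdkn1a, the inhibitor p21 and a p53 target, stood at 61.2, 67.3 and 65 FPKM in Control and 66.7, 63.3 and 64.7 in WGFT17, the groups overlapped, and it did not pass (log2 -0.10). Of 29 p53 targets 8 were higher and 14 lower, and of 44 DNA repair genes 6 higher and 22 lower.

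The windows below are shown because the cell division genes fell together, and capitals mark the letters searched. The cell cycle homology region, TTTGAA or TTCGAA on either strand, was found in 17 of 47 mitosis promoters (36.2%) and in 12.2% of all promoters, and the NF-Y box CCAAT in 35 of 47 (74.5%) and in 36.7%. Both stood in 15 of 47 (31.9%) and in 4.91% of all. E2F sites, TTCCCGCC or TTGGCGCC, lay in 5 of 40 replication promoters (12.5%) and in 4.64% of all. Since every tested mitosis gene fell, the letters do not divide those that moved from those that did not. The windows lie at chr9:70421686-70421751 (minus strand) for Ccnb2, chr4:118437344-118437391 (minus) for Cdc20, chr2:164769870-164769928 (plus) for Ube2c and, with an E2F site, chr7:102441598-102441665 (plus) for Rrm1, all from RefSeq on GRCm38.p6.
Ccnb2: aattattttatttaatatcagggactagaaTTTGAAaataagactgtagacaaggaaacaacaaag
Cdc20: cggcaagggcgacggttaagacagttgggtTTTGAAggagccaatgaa
Ube2c: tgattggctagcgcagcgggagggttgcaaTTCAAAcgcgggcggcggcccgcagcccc
Rrm1: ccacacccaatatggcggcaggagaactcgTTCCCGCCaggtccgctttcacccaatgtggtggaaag

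Cytosolic ribosomal and respiratory genes were lower in larger number than higher. Of 78 cytosolic ribosomal proteins 48 were lower and 5 higher (median -0.24), and of 71 nuclear-encoded genes of the respiratory chain and ATP synthase 50 were lower and 1 higher (median -0.32). Of these, 4 ribosomal and 5 respiratory genes were at least 2-fold lower. With limma on log2(FPKM + 1) the medians were -0.13 and -0.21. Their medians in JHU083 against Control were -0.40 and -0.32. The ribosomal proteins that rose included, named after their values were seen, Rpsa, Rplp0, Rpl4 and Rpl5, by 0.21 to 0.35 on the log2 scale, and the respiratory gene was cytochrome c1, Cyc1 (0.28). The call of Cyc1 was lost on leaving out any 1 of the 6 libraries (edgeR adjusted p = 0.0622 to 0.118), and that of Rplp0 without Control replicate 1 (0.062) or WGFT17 replicate 3 (0.0603). With no minimum FPKM Cyc1 did not pass either (edgeR adjusted p = 0.0527). Ndufa4, a subunit of cytochrome oxidase, averaged 39 ± 1.34 FPKM in Control and 23.7 ± 1.65 in WGFT17 and fell by 0.83. Of the 13 protein-coding genes of the mitochondrial genome 10 were lower and 1 higher (median -0.63), 4 of them at least 2-fold lower. mt-Co1, the catalytic subunit of cytochrome oxidase, stood at 6189, 6132 and 6127 FPKM in Control and 3815, 3676 and 3507 in WGFT17, without overlap (fell by 0.86), while mt-Nd2 rose by 0.34. Mitochondrial ribosomal proteins were 22 lower and 8 higher of 75, and the tricarboxylic acid cycle 21 lower and 4 higher of 37. Ribosome biogenesis genes, by comparison, were 19 higher and 4 lower of 48. Glycolysis was split, 11 higher and 12 lower of 30, and the hexokinase Hk2 went from 11.1, 10.6 and 10.4 FPKM to 17.5, 19.7 and 18.6, with no overlap (log2 0.69). Purine and pyrimidine synthesis was 6 higher and 18 lower of 41.

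Transcript length, taken from the longest annotated transcript of a gene, moved with these small changes. Among 1230 genes with transcripts under 1000 bases 134 were higher and 509 lower, with a median log2 change of -0.33, and among 555 genes over 8000 bases 283 were higher and 111 lower, with a median of 0.20. Cytosolic ribosomal and respiratory genes had median lengths of 1076 and 1046 bases, the 13 protein-coding genes of the mitochondrial genome 784, and mitosis genes 3645. The part of length in the ribosomal, respiratory and mitochondrial genome values was not tested. Of 12 long noncoding RNAs that stay in the nucleus 7 were higher and 5 did not pass. Neat1, the scaffold of paraspeckles, stood at 9.25, 7.9 and 6.43 FPKM in Control and 44.3, 39.2 and 54.4 in WGFT17 (5.42-fold), and Malat1 rose 4.07-fold, with no overlap for either. Splicing factors were 20 higher and 20 lower of 65, and chromatin regulators 26 higher and 14 lower of 60.

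**Figure D4:**
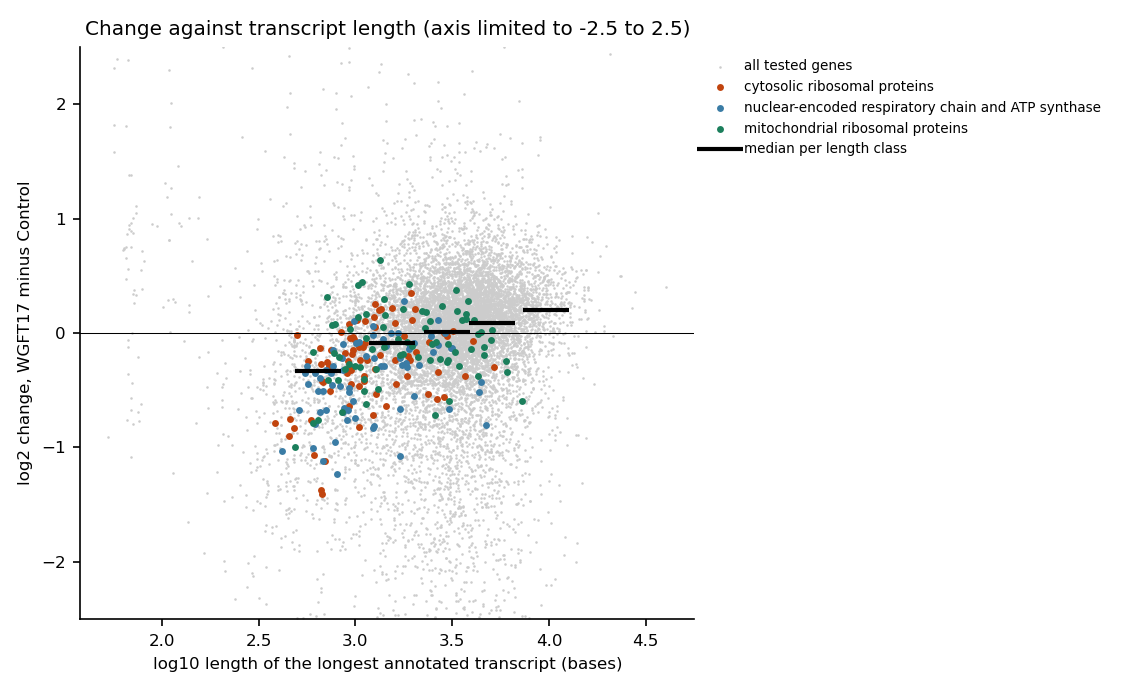
Log2 change in WGFT17 against Control by transcript length (log10 bases), with cytosolic ribosomal, respiratory and mitochondrial ribosomal genes coloured and black bars at the median of each length class. The class medians run from -0.33 under 1000 bases to 0.20 over 8000 bases.

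Interferon-stimulated genes rose as a group at low to moderate levels. Of 49 tested, 34 were higher and 5 lower, 13 of them at least 2-fold higher, with a median of 0.61 (0.25 for JHU083 against Control). Ifit3, an antiviral protein, stood at 3.34, 4.45 and 3.86 FPKM in Control and 14, 13.1 and 11.4 in WGFT17, and Rsad2, the antiviral enzyme viperin, at 1.23, 1.05 and 1.15 and at 4.24, 3.79 and 3.75. The groups did not overlap for either gene, and they rose by 1.61 and 1.67 on the log2 scale. The oligoadenylate synthetase genes Oas3, Oasl2 and Oas2 rose by 1.63, 1.51 and 1.05. Stat2 and Irf9, signal transducers that interferon receptors use, rose by 0.87 and 0.57, and Irf7 by 0.96. The 5 that fell, named after their values were seen, were Ifi27l2a, from 38.2, 42 and 30.4 FPKM to 6.41, 4.79 and 6.01, and Gbp2 (log2 -0.95), Isg20 (-0.73), Gbp3 (-0.44) and Ifitm3 (-0.13). By edgeR, Isg20 missed the threshold without Control replicate 2 (adjusted p = 0.0517), Gbp3 without that library or WGFT17 replicate 1 or 2 (0.0523 to 0.0619), and Ifitm3 without any 1 of the libraries other than Control replicate 1 (0.0704 to 0.163), with the replicate block (0.0872), with no minimum FPKM (0.15) or scaled by library totals alone (0.0665), and its change was -0.02 with limma. Gbp3 also did not pass on log2(FPKM + 1) (limma adjusted p = 0.0542). The interferon element, GAAA followed after 2 bases by GAAA, lay on either strand in 20 of 39 list promoters (51.3%) and in 2.71% of all promoters. Among those 20 genes 14 rose and 2 fell. The 3 windows shown, with the match in capitals, are from RefSeq on GRCm38.p6 at chr19:34583377-34583446 (plus strand) for Ifit3, chr5:120777695-120777764 (minus) for Oas3 and chr12:26456533-26456602 (minus) for Rsad2.
Ifit3: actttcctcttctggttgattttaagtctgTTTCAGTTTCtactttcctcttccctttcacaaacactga
Oas3: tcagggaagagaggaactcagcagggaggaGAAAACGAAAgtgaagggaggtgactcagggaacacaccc
Rsad2: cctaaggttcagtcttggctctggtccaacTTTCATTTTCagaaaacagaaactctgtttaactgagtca

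Class I and class II antigen presentation went apart. Of 23 class I genes 13 were higher and 3 lower (median 0.29), and of 12 class II genes 3 were higher and 7 lower (median -0.50). The class II median was -1.15 among members of at least 5 FPKM and -0.27 with limma on log2(FPKM + 1). H2-D1, a classical class I heavy chain, stood at 474, 486 and 509 FPKM in Control and 1153, 1195 and 1171 in WGFT17, a rise of 2.22-fold with no overlap. H2-K1 rose by 0.86 on the log2 scale and the shared light chain B2m by 0.40. The class I genes that fell, named after their values were seen, were the peptide-loading chaperones Calr and Pdia3 and the proteasome activator Psme1 (log2 -0.28). Class II heterodimer genes fell, with H2-Aa at 8.32, 9 and 13 FPKM in Control and 1.54, 2.3 and 1.49 in WGFT17, and the invariant chain Cd74 at 90, 83.1 and 127 and at 37.9, 43.8 and 36.3. Control replicate 3 was the highest for both, and the groups still did not overlap. The 3 class II genes that rose, named after their values were seen, were Ctss, the protease that trims the invariant chain (0.37), and the promoter-binding factors Rfxap (0.48) and Rfxank (0.31). Leaving out Control replicate 2 or 3 or WGFT17 replicate 1 or 3 ended the edgeR call of Rfxap (adjusted p = 0.0586 to 0.127), and leaving out Control replicate 2 or WGFT17 replicate 2 or 3 that of Rfxank (0.0747 to 0.122). With no minimum FPKM Rfxap did not pass either (edgeR adjusted p = 0.0517). H2-Aa and H2-Ab1 also stand among the dendritic cell markers, whose sum was lower in WGFT17, and their part in the class II values was not tested. Of 16 T cell ligands 8 were higher and 4 lower. Cd274, the checkpoint ligand PD-L1, stood at 6.58, 5.85 and 5.58 FPKM in Control and 27.4, 26.4 and 28.7 in WGFT17. Cd86, a costimulator of CD28, went from 4.5, 4.33 and 3.87 FPKM to 14.1, 14.4 and 15.9. The groups were apart for both, and the rises were 4.25-fold and 3.24-fold.

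Chemokines fell. Of 17 tested, 15 were lower and 2 did not pass, 10 of the 15 at least 2-fold, with a median of -1.26. Cxcl16, a membrane-bound ligand made by macrophages, stood at 37, 36.2 and 40.8 FPKM in Control and 17.3, 18.6 and 15.5 in WGFT17. Ccl9, Ccl2 and Ccl7, which attract monocytes, fell by 1.20, 0.80 and 0.81. Cxcl12, the stromal retention factor of marrow, stood at 42.5, 52.8 and 43.2 FPKM and at 2.21, 1.98 and 2.45, was 22.4-fold lower, and is itself one of the stromal markers. Cxcl2 (log2 0.12) and Ccl6 (-0.22) did not pass and their groups overlapped. Cxcl10, Il1b, Il6 and Nos2 averaged under 1 FPKM and were not tested. Among 9 chemokine receptors 2 were higher and 4 lower. Cx3cr1, the fractalkine receptor, went from 21.6, 22.1 and 17.9 FPKM to 5.09, 4.69 and 4.16, 4.77-fold lower without overlap. Of 36 receptors of the interleukin and TNF families 5 were higher and 16 lower, and Il1rl1, the IL-33 receptor, which mast cells also carry, was 14.4-fold lower. The mast cell and basophil sum was also lower, and its part in that value was not tested. Csf3, a growth factor of neutrophils, stood at 2.61, 3.16 and 1.99 FPKM in Control and was listed at 0 in each WGFT17 library. The receptors for GM-CSF rose, Csf2ra by 1.07 and Csf2rb by 0.66 on the log2 scale, and Csf1r fell by 0.36.

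Activation genes did not move as a single program. Of 20 genes of alternative activation 13 were lower and 5 higher (median -0.62), and of 18 of classical activation 6 were lower and 8 higher. Mrc1, the mannose receptor, stood at 122, 122 and 102 FPKM in Control and 64.6, 62.3 and 55.3 in WGFT17, and Il1rn, the interleukin-1 receptor antagonist, at 14.1, 15.2 and 13.8 and at 1.86, 2.07 and 1.79. Both fell without overlap, by 1.03 and 3.02 on the log2 scale. The chitinase-like Chil3 fell by 4.74 and the coagulation factor F13a1 by 1.85. The neutrophil marker sum was also lower in WGFT17, and the part of neutrophils in the Chil3 value was not tested. The 5 alternative activation genes that rose, named after their values were seen, were Cd200r1 (1.01), Msr1 (0.92), Vegfa (0.90), Cd163 (0.54) and Tgfb1 (0.24). In the classical list Slamf7 rose by 1.14, Marco by 1.00 and Cd40 by 0.81, and Socs3 fell by 1.11. Acod1, which makes itaconate, had the lowest value of that list, at 6.49, 7.23 and 6.19 FPKM in Control and 1.84, 1.22 and 0.98 in WGFT17 (log2 -2.40, edgeR adjusted p = 0.0258). Its JHU083 libraries stood at 0.48, 0.41 and 6.35 FPKM, and with JHU083 replicate 3 left out of the fit the edgeR adjusted p was 1.44e-06. The call was lost with no minimum FPKM (edgeR adjusted p = 0.0709) and without Control replicate 1 or 2 or WGFT17 replicate 2 or 3 (0.0505, 0.0583, 0.0748 and 0.0841). Complement genes were 13 lower and 3 higher of 19 (median -0.90). C1qb, part of the recognition unit C1q, stood at 1049, 1117 and 1142 FPKM in Control and 648, 664 and 602 in WGFT17, without overlap, and C3 fell by 1.93. In JHU083 replicates 1 to 3, C3 stood at 17.9, 12.9 and 27.5 FPKM and the liver marker sum at 311, 144 and 397. The liver sum was 676 to 763 FPKM in Control and 187 to 379 in WGFT17. Its part in the complement values was not tested. The 3 complement genes that rose were the anaphylatoxin receptors C3ar1 (0.51) and C5ar1 (0.44) and Vsig4 (1.58), a receptor for C3b, named after their values were seen. The integrin Itgax, CD11c, fell by 2.34 and Itgam, CD11b, by 0.55. Itgax is 1 of the 13 dendritic cell markers, whose sum was 55.8 to 75.5 FPKM in Control and 16.2 to 19.8 in WGFT17, and their part in its value was not tested.

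Surface receptors of other kinds were mixed by family. Among 32 lectins, Siglecs, CD300 and paired receptors 12 were higher and 14 lower. Cd200r4, an activating relative of the CD200 receptor, went from 9.81, 10.4 and 8.87 FPKM to 48.7, 45.7 and 48, Clec4e, the receptor Mincle, rose by 1.66 on the log2 scale and Siglec1 by 1.16. None of the 3 overlapped. Fc, scavenger and efferocytosis receptors were 9 higher and 17 lower of 33, and Cd36, a scavenger and fatty acid receptor, rose by 0.70. Of 42 toll-like, NOD-like and inflammasome genes 18 were higher and 10 lower, and of 31 G protein-coupled receptors of myeloid cells 16 were higher and 8 lower. Prostanoid and leukotriene genes were 9 higher and 9 lower of 21. Ptgir, the prostacyclin receptor, stood at 1.32, 1.44 and 1.21 FPKM in Control and 15, 14.2 and 16.4 in WGFT17, 10.6-fold higher (adjusted p = 8.51e-10). Pla2g4a, the phospholipase that releases arachidonate, rose by 1.59, the prostaglandin E2 receptor Ptger2 by 1.58 and the cyclooxygenase Ptgs2 by 0.79, while the leukotriene enzymes Ltc4s and Alox5 fell by 1.83 and 0.91. Of 31 C/EBP and macrophage transcription factors 13 were higher and 5 lower. Id1, an inhibitor of bHLH factors, went from 10.8, 9.13 and 10.5 FPKM to 50.1, 45.8 and 50.4. Bhlhe41, Klf4 and Cebpa rose by 1.31, 1.00 and 0.80. Of 40 early response genes 6 were higher and 16 lower, with Fos up by 0.79 and Egr1 down by 0.81. Of 35 BCL2 family and cell death genes 15 were higher and 8 lower, and of 16 circadian clock genes 6 were higher and 4 lower.

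**Figure D5:**
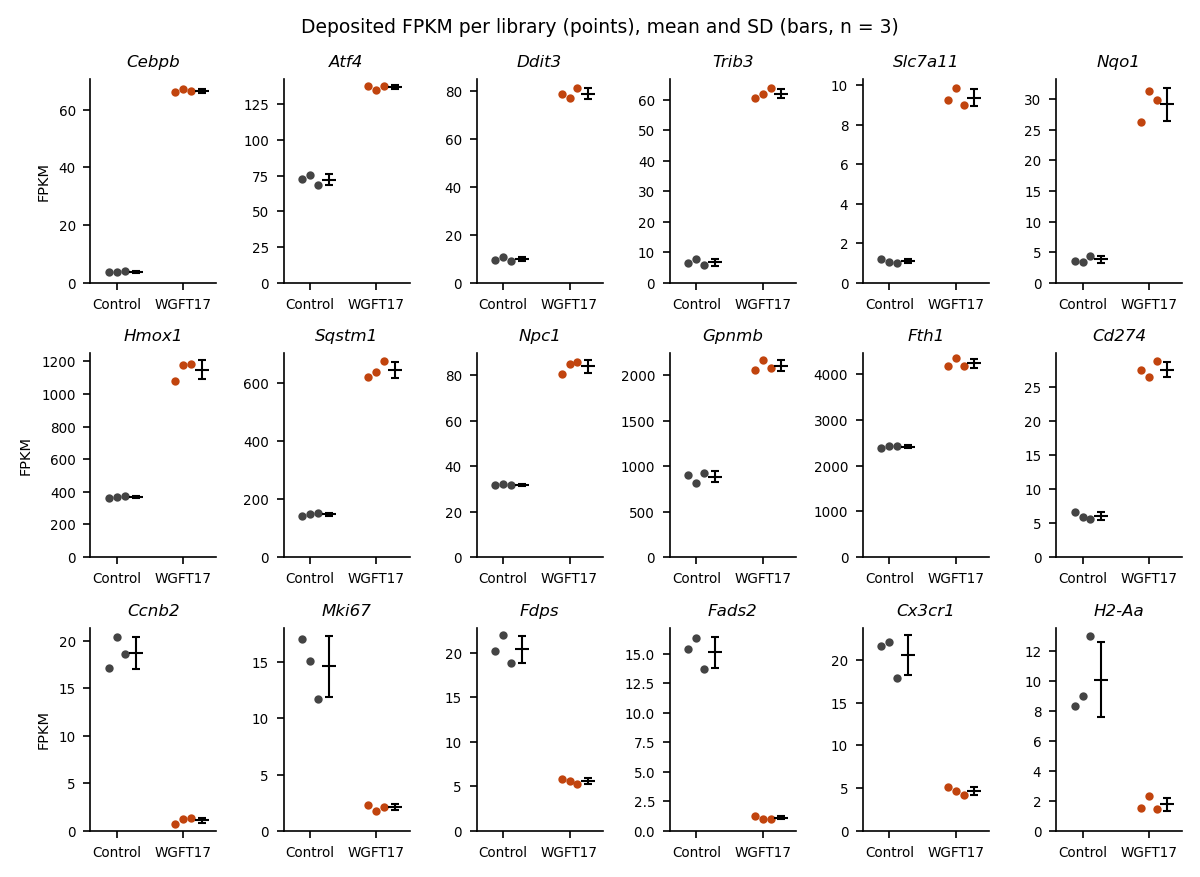
FPKM of 18 genes in the 3 Control and 3 WGFT17 libraries (points), with the group mean and SD. WGFT17 lies apart from Control for each gene.

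Matrix and contractile genes fell. Of 30 collagens and collagen-processing genes 27 were lower and 1 higher (24 at least 2-fold lower, median -1.91), of 36 matrix glycoproteins and proteoglycans 35 were lower and 1 higher (median -1.97), and of 17 smooth muscle and myofibroblast genes all 17 were lower (median -3.21). In JHU083 against Control the collagen median was -0.43. Col1a1, the main fibrillar collagen and a stromal marker, stood at 875, 890 and 832 FPKM in Control and 99.5, 92.8 and 97.2 in WGFT17. Col6a3, a microfibril collagen, stood at 25.6, 28.7 and 26.6 FPKM and at 0.63, 0.66 and 0.76. Acta2, smooth muscle actin, stood at 951, 1032 and 944 FPKM and at 106, 108 and 127. The groups were far apart for each, and the genes were 9.67-fold, 42.2-fold and 9.27-fold lower. The contractile genes Tagln (log2 -3.47), Myl9 (-3.49) and Cnn1 (-5.55) fell, as did Thbs1, thrombospondin (-2.34). The 2 members that rose, named after their values were seen, were Col18a1 (1.14) and Spp1, osteopontin, which went from 2048, 1918 and 2095 FPKM to 2718, 2665 and 2708 (0.31). Matrix proteases and inhibitors were 23 lower and 6 higher of 31. Mmp9 and Mmp12, proteases also made by macrophages, fell by 2.16 and 1.15 on the log2 scale, and Mmp2 by 1.57. Mmp9 belongs to the osteoclast markers, whose sum was 195 to 245 FPKM in Control and 153 to 159 in WGFT17. Among 32 IGF, TGF-beta and WNT ligands and modulators 23 were lower and 4 higher. The WNT modulator Sfrp2 was 117-fold lower, at 9.16, 9.43 and 7.58 FPKM in Control and 0.07, 0.11 and 0.04 in WGFT17. Igf1, which macrophages also make, stood at 33.8 ± 0.98 FPKM (SD, n = 3) and 33.4 ± 0.331, and did not pass. Cytoskeletal genes were 38 lower and 8 higher of 51 (median -0.65), and integrins and cadherins 12 lower and 4 higher of 23. The stromal markers, whose sum was also lower, share Col1a1, Col1a2 and Col3a1 with the collagen list and Postn and Dcn with the glycoproteins, so the lists are not independent. The part of stromal cells in the matrix and contractile values was not tested.

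Beyond the families, the largest single rise among genes of at least 10 FPKM with a non-provisional symbol was Avil, which encodes the actin-severing protein advillin. It stood at 0.33, 0.55 and 0.32 FPKM in Control and 29, 32.6 and 33.7 in WGFT17 (chr10:127000709-127020994), 73.4-fold higher (adjusted p = 7.53e-08). Avil overlaps Tsfm on the opposite strand, whose change was -0.01 on the log2 scale. F5, coagulation factor V, went from 1.64, 1.48 and 1.88 FPKM to 18.2, 19.1 and 18.9, and Cdsn, corneodesmosin of keratinocyte junctions, from 5.21, 7.18 and 4.21 to 53.2, 52 and 57.3. No library overlapped for any of these genes, and the rises of F5 and Cdsn were 10.4-fold and 9.09-fold. Chchd10, a mitochondrial cristae protein, rose 7.86-fold, although Mmp11 lies across it on the other strand and moved by 0.63 on the log2 scale. Itgb7, a leukocyte integrin subunit, rose 4.57-fold. Among the falls, the neutrophil granule gene Ngp stood at 13.5, 14.2 and 14.1 FPKM in Control and 0.26, 0.18 and 0.12 in WGFT17 (77.3-fold lower), and the granzyme Gzmd at 15.6, 14.3 and 15.6 and at 0.11, 0.8 and 0.2. Ngp belongs to the neutrophil markers whose sum was lower in WGFT17. Of the 1521 genes changed at least 2-fold against Control, 1272 were also called against JHU083 in the same direction, a count that shares the WGFT17 libraries on both sides.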

How the data were processed

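Poly(A) RNA from mouse macrophages was made into strand-marked (dUTP) libraries and sequenced as read pairs, per the labels' protocols. The deposited table holds, per gene and library, estimated counts and FPKM made by the authors. Per the submitters' processing notes, cutadapt 1.9, HISAT2 2.2.1, StringTie 2.1.6, DESeq2, edgeR and mm9 were used, with no role or order given. The expected counts as deposited were whole numbers at about 4 per read pair, so they overstate the reads behind a value. Gene coordinates in the deposited file equal those of GENCODE M21 on GRCm38 for 25194 of 28926 matched identifiers (87.1%), so positions are given on GRCm38.

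Genes with a mean of at least 1 FPKM over the 9 libraries were fitted with edgeR 4.0.16 in R 4.3.3 (TMM factors, quasi-likelihood test, 3 groups in 1 fit) and Benjamini-Hochberg adjusted p-values over all 11798. Adjusted p-values in the text are from this fit unless another is named, and a gene was called at an adjusted p under 0.05. In simulated data of 11798 genes, 100 were changed 1.5-fold and 100 changed 2-fold, and all genes shared a common spread. The fit found 68% of the 1.5-fold and 99% of the 2-fold changes, with 13 false calls among the unchanged genes. In the real data the spread differed between genes and far more genes were called, so these rates may not carry over. FPKM means are given ± SD. Gene lists were described by counts and medians, with no test of a list. Alternatives used DESeq2 1.42.0, limma 3.58.1, other scalings and filters, a replicate block, and each library left out.

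The members and lists were chosen with earlier results of these data known. The naming rule took the 15 largest rises and the 15 largest falls among genes of at least 10 FPKM in the higher group without overlap, up to 6 called members and 2 uncalled members per list, and a set of well-known genes. Genes added outside this rule for their role, after their values were seen, were Atf5, Cebpg, Sesn2, Slc7a1, Hspa5, Gclc, Pgd, Taldo1, Ftl1, Ephx1, Akr1b8, Ctsd, Psap, Lipa, Gla, Mcoln1, Tfeb, Smpd1, Srebf2, Insig1, Fasn, Soat1, Nceh1, Hmgcs1, Mcm5, Mcm3, Mcm2, Ccnd1, Ccne2, Cdc20, Ndufa4, Oas2, Stat2, Irf9, Irf7, B2m, Ccl9, Ccl7, Alox5, Cebpa, Fos, Egr1, Tagln, Myl9, Thbs1, Mmp2 and the members said in the text to go against their list. Promoter windows are RefSeq sequence on GRCm38.p6, with 1 window per gene, and those shown are among the up to 4 called members per motif with the largest changes. Whether the authors' counting used strand is not given in the sources used here, so values of genes that overlap another tested gene are uncertain. Of the genes described these are Cebpb, Ddit3, Avil, Chchd10, Slc6a9, Npc1, Gclm, Txnrd1, Cx3cr1, Cxcl16, Bhlhe41, Cyp51, Fdft1, Spp1, Gapdh, Atf5, Ccnd1, Ccne2, Cdc20, Ftl1, Irf7, Irf9, Psmb7, Psme1, Rfxank, Rpl5, Tagln, Tuba1a and Kif20a. Some members are not reported here.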

Additional observations from a re-analysis of the deposited data

How the results depend on the processing

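No gene called in the fit reported was called in the opposite direction under any alternative compared gene by gene, whose called genes numbered 6007 to 7912 apart from the filter below. With a mean of at least 5 FPKM, fewer genes were tested, and 4151 were called (2072 higher and 2079 lower), 661 of them at least 2-fold (124 higher and 537 lower). Without a minimum the 2-fold genes numbered 2861 (557 higher and 2304 lower). With limma on log2(FPKM + 1) they numbered 942 (742 lower), where the pseudocount draws low genes toward 0. A minimum-fold test at 1.5 called 1832 genes. Gene lists with a median above 0.5 numbered 2, and 4 with at least 5 FPKM or with limma on log2(FPKM + 0.1). The endothelial list's median was -1.25 and turned to 0.70 at 5 FPKM, where fewer members are tested. Leaving out each library in turn gave 6007 to 6327 called and 1486 to 1525 at least 2-fold. Replicate numbers did not pair the samples (correlations of -0.00129, 0.05 and 0.161 for the same number), and with the replicate block 6530 genes were called, 6469 of them in the same direction as before. Without JHU083 replicate 3, chosen after seeing the data, 7598 were called. List medians that changed sign with limma on FPKM were within 0.1 of 0 in the fit reported. Genes listed at 0 in WGFT17 have no measurable fold.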

Other observations

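Some gene families grouped by symbol after the data were seen also moved together. All 9 tested S100 genes, which encode small calcium-binding proteins, were lower in WGFT17, 8 of them at least 2-fold, with a median log2 change of -1.85. S100a4 stood at 289, 318 and 294 FPKM in Control and 61.5, 60.2 and 51.6 in WGFT17, and S100a11 at 714, 723 and 786 and at 208, 227 and 229, with no overlap for either. S100a8 and S100a9 belong to the neutrophil markers. Of 12 tubulins 10 were lower and 1 higher (median -0.88), and Tuba1a went from 326, 342 and 324 FPKM to 62.3, 61.5 and 71.4. Kinesin motors divided, with 13 of 25 lower and 11 higher. Those that fell included the motors of the spindle, with Kif20a at 12.9, 14.1 and 12.2 FPKM in Control and 1.68, 1.41 and 1.18 in WGFT17, and Kif11 lower by 2.91 on the log2 scale. Of 34 tripartite motif genes 20 were higher and 4 lower (median 0.41), with Trim25, a ubiquitin ligase of RNA sensing, at 16.6, 15.9 and 16 FPKM and at 31.8, 30.4 and 31. Vacuolar protein sorting genes were 20 higher and 3 lower of 34 (median 0.29).

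The ribosomal RNAs of the mitochondrion rose while most of its messenger RNAs fell. mt-Rnr1 stood at 77.4, 89 and 85 FPKM in Control and 235, 225 and 225 in WGFT17, and mt-Rnr2 at 155, 163 and 166 and at 379, 397 and 374, with no overlap. These libraries were selected for poly(A) RNA, and ribosomal RNA that remains depends on that selection, whose part was not tested. Granzyme genes, known from lymphocytes and mast cells, were measured in these cultures. The levels of Gzme were 70.9, 62.3 and 59.9 FPKM in Control and 2.59, 3.24 and 2 in WGFT17, with JHU083 between them at 34.5, 25.2 and 29.6. The mast cell and basophil sums were 9.41 to 11.8 FPKM in Control, 4.34 to 5.44 in JHU083 and 0.86 to 0.98 in WGFT17, and their part in the granzyme values was not tested. Gzmb stood at 1.09, 0.94 and 0.97 in Control and 4.03, 3.42 and 5.59 in WGFT17. Major urinary protein genes, secreted by the liver, were 6 of 9 higher, although 18 of 25 liver markers were lower. Mup7 stood at 1.61, 1.74 and 1.01 FPKM in Control and 13.5, 13.7 and 1.62 in WGFT17, so WGFT17 replicate 3 lay within the Control range. That library was also the lowest of its group for Mup3, Mup13, Mup19, Mup20 and Mup22, and in the liver marker sum (379, 377 and 187 FPKM). The edgeR call of Mup7 was lost without Control replicate 3 (adjusted p = 0.0563). Mup7 also did not pass on log2(FPKM + 0.1) (limma adjusted p = 0.0508). The copies of this family are nearly identical, so the split of reads among them is uncertain. Gapdh, often used as a reference gene, stood at 11.6, 57.5 and 58.9 FPKM in Control and 38.1, 36.2 and 9.84 in WGFT17, did not pass, and varied as much within as between groups.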
